A study of Mus musculus with 28 samples.

Results

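The transcripts of inhibitory glycine signalling and of neuronal chloride transport were followed in mice that carry the human form of the RNA-binding protein NOVA1. The set held 9 genes, matched by symbol among the 23038 genes of each table, and all 9 were found. They are the glycine receptor subunits Glra1, Glra2, Glra3 and Glrb, the anchoring protein gene Gphn, the glycine transporters Slc6a5 and Slc6a9, and the chloride cotransporters Slc12a2 and Slc12a5. They were picked by symbol and role, with no threshold on a measured value. RNA-seq libraries came from C57BL/6J mice (BL6 in the labels) that were homozygous for the humanizing I197V substitution in Nova1 (Nova1hu/hu) or were wild type (Nova1wt/wt). Midbrain was taken before birth (stage E18.5, 6 libraries of each genotype) and at postnatal day 21 (P21, 4 of each), and cortex was taken at P21 (4 of each), which gave 28 libraries. The substitution is in the germ line, so that every cell of a Nova1hu/hu animal carries it, and wild-type littermates were the controls. No group received a treatment, and both sexes were used in equal number.

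Glycine is, beside GABA, the main fast inhibitory transmitter of the brainstem and spinal cord. Its receptor is a chloride channel built from alpha subunits, which bind glycine, together with the beta subunit, which ties the channel to the gephyrin scaffold under the inhibitory synapse. In many regions the embryonic alpha subunit, encoded by Glra2, gives way after birth to the adult one, encoded by Glra1. GLYT2 (Slc6a5) refills glycinergic nerve endings and marks glycinergic neurons, whereas GLYT1 (Slc6a9) clears glycine mostly into glia. The cotransporter NKCC1 (Slc12a2) brings chloride into the cell and KCC2 (Slc12a5), which is restricted to neurons, takes it out, and the balance of both sets how strongly an open channel inhibits. Glycine receptor transcripts are also among the classical targets of NOVA proteins in splicing, which gene-level counts do not measure.

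The start regions of 3 members on which the results turn are shown first, so that each can be read beside its levels. RefSeq on GRCm38.p6, the assembly of mm10, gave 11 promoter windows for 7 of the 9 members, each with 250 bases before and 50 bases after an annotated start. Glra1 and Slc12a2 had no entry. Capitals mark the letters of an E-box (CANNTG) or a GC box (GGGCGG) found on either strand. The sequences belong to Glra2, the leading alpha subunit transcript before birth (chrX:165327344-165327643, minus strand), to Slc6a5, the member that differed most between regions (chr7:49910049-49910348, plus strand), and to the upstream and downstream starts of Slc12a5, the most abundant member (chr2:164960596-164960895 and chr2:164967738-164968037, both plus strand).
Glra2: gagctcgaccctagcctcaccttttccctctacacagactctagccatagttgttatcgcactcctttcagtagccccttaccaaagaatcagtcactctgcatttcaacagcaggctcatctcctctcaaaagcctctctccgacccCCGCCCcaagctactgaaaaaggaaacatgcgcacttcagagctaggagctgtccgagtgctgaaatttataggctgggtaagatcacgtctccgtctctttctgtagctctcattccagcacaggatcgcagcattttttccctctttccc
Slc6a5, first of 2 windows: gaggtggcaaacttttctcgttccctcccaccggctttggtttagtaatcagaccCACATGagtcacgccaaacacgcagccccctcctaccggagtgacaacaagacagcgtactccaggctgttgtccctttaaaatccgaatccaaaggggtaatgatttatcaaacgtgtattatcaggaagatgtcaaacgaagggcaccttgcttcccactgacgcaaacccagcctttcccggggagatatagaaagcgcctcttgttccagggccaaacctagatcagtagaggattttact
Slc12a5, upstream start: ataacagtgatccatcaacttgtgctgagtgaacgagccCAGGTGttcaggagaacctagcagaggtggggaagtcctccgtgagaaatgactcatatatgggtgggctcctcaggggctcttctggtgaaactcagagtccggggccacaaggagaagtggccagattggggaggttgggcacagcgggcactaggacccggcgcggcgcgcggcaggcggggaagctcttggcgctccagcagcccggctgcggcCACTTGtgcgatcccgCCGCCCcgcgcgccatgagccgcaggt
Slc12a5, downstream start: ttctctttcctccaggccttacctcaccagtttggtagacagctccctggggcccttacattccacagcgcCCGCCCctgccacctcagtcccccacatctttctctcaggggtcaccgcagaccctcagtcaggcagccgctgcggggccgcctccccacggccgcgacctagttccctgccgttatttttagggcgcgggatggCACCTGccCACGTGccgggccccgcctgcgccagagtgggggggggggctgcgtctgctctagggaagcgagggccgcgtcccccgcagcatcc
Both Slc12a5 windows were rich in CpG, with 21 each against a median of 7 over 32817 promoters of the same length, and each held 2 E-boxes and 1 GC box. The Slc6a5 window held 12 CpG and 1 E-box and no GC box, and the Glra2 window held 9 CpG, 1 GC box and no E-box. Such letters are common, since CANNTG was found in 72.3% and GGGCGG in 35.6% of all promoters. The longer motif GCGNGGGCG of EGR factors, whose letters can overlap a GC box, stood in 5.56% of all promoters and in neither Slc12a5 window. These matches describe the sequence and say nothing of which factor binds there.

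The libraries held 18550922 to 45134998 expected counts each. Levels are given as TPM, in which the counts of each gene are divided by its exon length and scaled to the same total in every library, so that genes can be set beside each other. Nova1 itself was at 116 ± 11.0 TPM (SD, n = 6) in Nova1hu/hu and 116 ± 11.3 TPM (n = 6) in Nova1wt/wt midbrain at E18.5, and at 49.7 ± 3.40 and 48.1 ± 1.91 TPM in P21 midbrain and 24.5 ± 0.966 and 24.3 ± 1.06 TPM in cortex (n = 4 each). A gene-level count cannot show a single amino acid change, so it does not check the genotype. A list of 12 midbrain markers summed to 161 to 216 TPM in the midbrain libraries and to 12 to 22.2 TPM in cortex, and 9 cortex markers summed to 377 to 415 TPM in cortex and to 56.9 to 101 TPM in midbrain. Some midbrain libraries also carried transcripts of the neighbouring hindbrain. A list of 14 hindbrain markers, mostly Hox genes, summed to 15.3 to 46.0 TPM at E18.5 and to 13.3 to 60.3 TPM in P21 midbrain, where the libraries numbered 3 of both genotypes stood lowest, at 15.0 and 13.3 TPM. In cortex 13 of the 14 markers were under 0.2 TPM, with 5 at 0.

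Whether the humanized protein changed the level of any member was asked first, within each tissue. None of them passed the test. A gene was called when edgeR's quasi-likelihood test gave p under 0.05 and, after Benjamini-Hochberg adjustment over all genes tested, an adjusted p under 0.1. Of the members, 9 could be tested in midbrain at E18.5, 9 in midbrain at P21 and 8 in cortex, and 0 were called in each, against a background of 0% of all genes in each. DESeq2 and the likelihood ratio test of edgeR called 0 members as well. At an unadjusted p under 0.05 the count of members was again 0 in each tissue, where 1.29%, 2.67% and 2.85% of all genes reached that level. These fits do not pair same-numbered libraries. With the replicate number as a block, 813, 735 and 897 genes reached that level, in place of 201, 426 and 450. With this block, too, 0 members were called. The median size of the members' difference was 0.04, 0.03 and 0.02 on the log2 scale, beside 0.05 over all genes in every tissue. The fitted log2 fold changes of Nova1hu/hu over Nova1wt/wt lay between -0.06 and 0.13 in E18.5 midbrain, between -0.03 and 0.07 in P21 midbrain, and between -0.03 and 0.12 in P21 cortex.

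**Figure D1:**
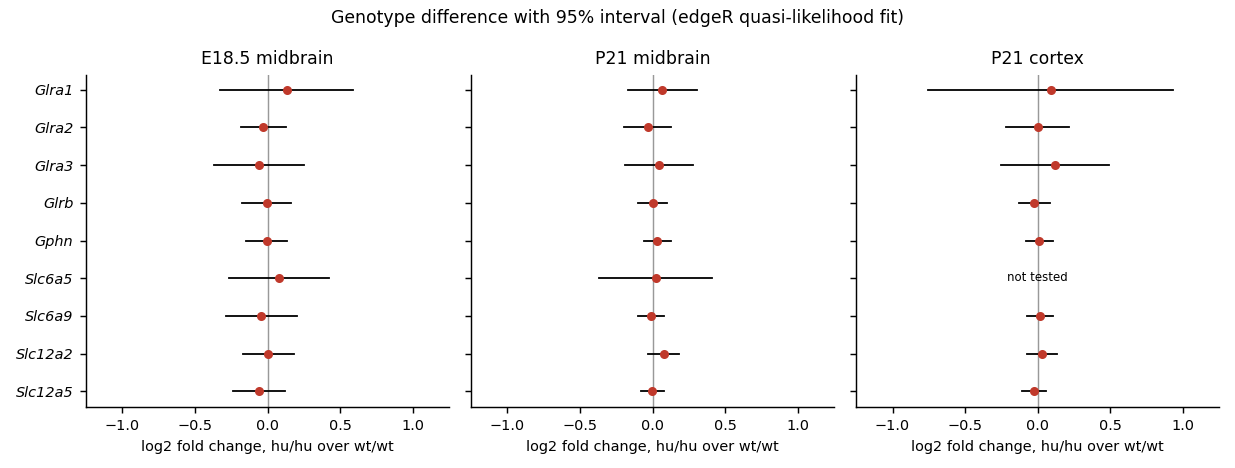
Fitted log2 fold change of Nova1hu/hu over Nova1wt/wt (x axis) for the 9 genes (y axis) in the 3 tissues, with the 95% interval of edgeR's quasi-likelihood fit, without pairing of same-numbered libraries, as a line. Slc6a5 was not tested in P21 cortex and has no interval there. All intervals shown hold 0, and that of Glra1 in P21 cortex, from -0.76 to 0.93, is the widest.

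The intervals give the range of differences that these libraries allow in a fit that does not pair same-numbered libraries. Same-numbered libraries of both genotypes deviated together, so these intervals can be wider than those of a paired fit. For Glra2, which has the most counts among the alpha subunits before birth, the log2 difference in midbrain was -0.03 at E18.5 (95% interval -0.18 to 0.12) and -0.03 at P21 (-0.20 to 0.13), and it was 0.00 in cortex (-0.22 to 0.22). For Glra1 it was 0.13 (-0.33 to 0.59), 0.07 (-0.17 to 0.30) and 0.09 (-0.76 to 0.93) in the same order, so that the limits for this transcript were wider at E18.5 and in cortex. The smallest unadjusted p among the members belonged to Slc12a2 in P21 midbrain, with a log2 difference of 0.07 (95% interval -0.03 to 0.18). Its levels were 149, 143, 126 and 149 TPM in the Nova1hu/hu libraries 1 to 4 and 142, 127, 131 and 141 TPM in the Nova1wt/wt libraries, and the groups overlapped. In this tissue the libraries numbered 3 had the lowest hindbrain marker sums, and leaving both out was chosen after seeing the data. Without them the difference of Slc12a2 was 0.11 with an unadjusted p of 0.0271 and an adjusted p of 0.970 in edgeR, so Slc12a2 was still not called. In that fit 695 of 16087 genes had an unadjusted p under 0.05 and 1 gene was called, against 426 of 15972 and 0 with all libraries. Exact permutation tests of the log2 TPM of single members gave 0 of 26 with p under 0.05, the lowest p being 0.286 and the lowest adjusted p 0.994.

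The difference between genotypes was also not shown to depend on age or region. In the interaction fits 0 members were called, against 0% of all genes in both, and 1.86% (age) and 2.28% (region) of all genes had an unadjusted p under 0.05, which 0 members had. These fits did not use the pairing either. With the replicate block 741 (age) and 598 (region) genes had such a p, in place of 303 and 373. The region interaction of Slc6a5 rests on 1 count in cortex.

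Age and region, in contrast, separated the members widely. The fitted changes rescale libraries for their composition, so they can differ from ratios of the TPM values printed beside them. In midbrain, 7 members were higher at P21 than at E18.5 and 2 were lower, so that all 9 were called. This stands beside 85.6% of all 16330 genes tested, with 42.4% higher and 43.3% lower. The median size of change was 1.90 on the log2 scale among the members and 0.62 over all genes, and Gphn, at 0.19, stood below the latter. At least 2-fold higher were Glra1, Glrb, Slc6a5, Slc6a9 and Slc12a2, which makes 5 of 9, and at least 2-fold lower was 1, Glra2, where 15.9% and 14.6% of all genes were called at that size. Age cannot be told apart from the time at which the samples of each age were prepared or sequenced. Between midbrain and cortex at P21, 8 of the 8 members that passed the filter on low counts in each tissue alone were higher in midbrain and 0 lower, against 75.6% of 16345 genes called, with 37.9% higher and 37.7% lower. Slc6a5, the other member, passed only through the midbrain libraries, so that its call was fixed by the filter, and it is left out of these counts. The values over all genes have no such restriction and include genes that passed through a single tissue. The median size over the 8 was 0.99 against 0.33 over all genes, and Gphn, Glra2 and Slc12a5 stood below the latter. At least 2-fold higher in midbrain were 4 of them, Glra1, Glra3, Slc6a9 and Slc12a2, and 0 were lower at that size, where the background was 7.81% and 7.56%. In bulk tissue, fewer cells of a type and less RNA per cell cannot be told apart.

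**Figure D2:**
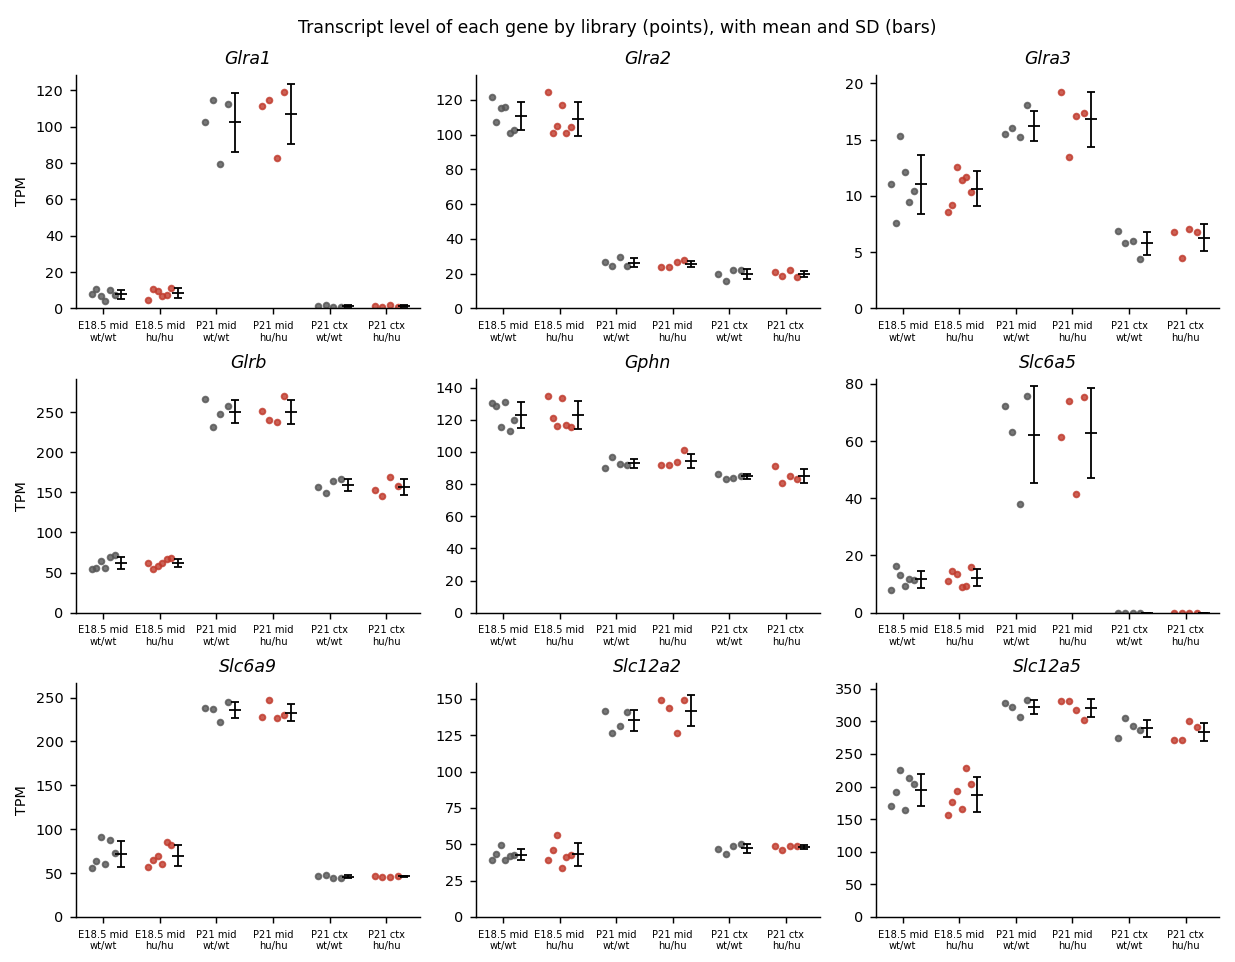
Level in TPM (y axis, from 0) of each of the 9 genes in every library (points), for Nova1wt/wt (grey) and Nova1hu/hu (red) of each tissue (x axis), with the mean and SD beside the points. Both genotypes overlap in every panel, while Glra1, Glrb, Slc6a9 and Slc12a2 are highest in P21 midbrain and Glra2 is highest in E18.5 midbrain.

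The alpha subunits exchanged places in midbrain between E18.5 and P21. Glra1, the subunit of the adult receptor (Entrez 14654, chr11:55514239-55608198 in GRCm38), was at 4.71, 8.77 and 11.2 TPM (lowest, median and highest) in E18.5 Nova1hu/hu midbrain and at 4.03, 7.44 and 10.5 TPM in Nova1wt/wt. At P21 it was at 111, 115, 82.6 and 119 TPM in the Nova1hu/hu libraries and at 103, 115, 79.4 and 113 TPM in the Nova1wt/wt libraries. No P21 library came near the E18.5 range, and the libraries numbered 3 were the lowest of both genotypes. The rise was 14.6-fold (95% interval 12.3 to 17.5), or 3.87 ± 0.12 on the log2 scale (SE), with an adjusted p of 2.92e-20 in the edgeR fit. Glra2, the subunit of the embryonic receptor (Entrez 237213, chrX:165129017-165327867), moved the other way. It was at 101, 105 and 125 TPM in Nova1hu/hu and at 101, 111 and 122 TPM in Nova1wt/wt midbrain at E18.5, and at 24.1, 24.0, 27.0 and 27.6 TPM in Nova1hu/hu and 26.7, 24.6, 29.8 and 24.5 TPM in Nova1wt/wt midbrain at P21. The groups of each age did not overlap, and the level was 3.67-fold lower at P21 (log2 -1.87 ± 0.06, adjusted p = 1.71e-20, edgeR).

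Glra3, an alpha subunit best known from the superficial spinal cord (Entrez 110304, chr8:55940418-56130070), rose less. It was at 10.8 ± 2.06 TPM (SD, n = 12, both genotypes) at E18.5 and at 16.5 ± 1.83 TPM (n = 8) at P21 in midbrain, a 1.75-fold rise (95% interval 1.52 to 2.02, adjusted p = 2.69e-08, edgeR), and the ranges overlapped (7.57 to 15.3 and 13.4 to 19.2 TPM). Summed over the 3 alpha subunits, the level was 129 ± 7.58 TPM at E18.5 and 147 ± 14.4 TPM at P21. The make-up of the sum therefore changed far more than its size. Glra2 made up 85.2% ± 2.34 (n = 12) of it at E18.5 and 17.9% ± 3.11 (n = 8) at P21, while Glra1 made up 6.40% ± 2.08 and 70.8% ± 4.09. The ratio of Glra1 to Glra2 went from 0.0756 to 4.06, which is 56.1-fold higher at P21 by the means of the log2 ratios (exact permutation p = 7.94e-06, the smallest that shuffling single libraries allows, adjusted over 23 ratio tests 4.56e-05). All age and region permutations treat libraries as independent, whereas same-numbered libraries of both genotypes deviated together, so these p-values can be too small.

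**Figure D3:**
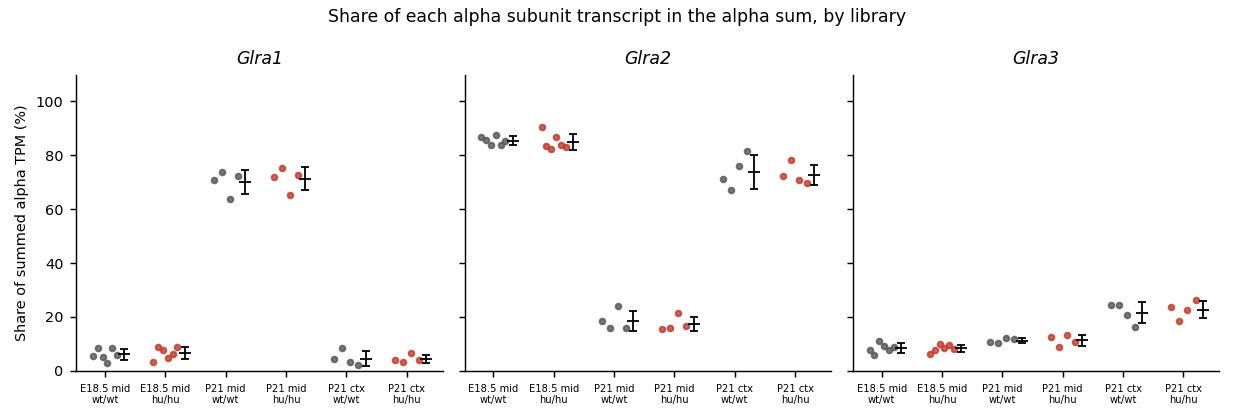
Share of Glra1, Glra2 and Glra3 in the summed TPM of the 3 alpha subunits (y axis, percent) in every library (points) by tissue and genotype (x axis), with mean and SD. Glra2 leads in E18.5 midbrain and in P21 cortex, and Glra1 leads in P21 midbrain.

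Cortex at P21 had few alpha subunit transcripts and Glra2 was the leading one. The alpha sum was 27.2 ± 2.56 TPM (n = 8), of which Glra2 held 73.4% ± 4.82, Glra3 22.1% ± 3.34 and Glra1 4.48% ± 2.07. Glra1 was at 1.12, 0.760, 2.06 and 1.04 TPM in the Nova1hu/hu libraries and at 1.21, 2.01, 0.946 and 0.574 TPM in the Nova1wt/wt libraries of cortex. It was thus 81.4-fold higher in midbrain (95% interval 66.1 to 100.1, log2 6.35 ± 0.14, adjusted p = 7.91e-22, edgeR), the widest gap among the members with more than a few counts in cortex. Glra3 was at 6.77, 4.49, 7.04 and 6.78 TPM in Nova1hu/hu cortex and at 6.90, 5.80, 6.0 and 4.40 TPM in Nova1wt/wt cortex, below every midbrain library of that age. Its level was 2.60-fold higher in midbrain (2.25 to 3.01, adjusted p = 1.05e-11, edgeR). Glra2 differed least of the alpha subunits, with 20.7, 18.9, 22.1 and 18 TPM in Nova1hu/hu cortex and 20.1, 15.8, 22.0 and 21.9 TPM in Nova1wt/wt cortex. That was 1.24-fold lower than in midbrain (1.12 to 1.36, adjusted p = 0.000224, edgeR), and the ranges did not overlap.

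The beta subunit gene Glrb (Entrez 14658, chr3:80843598-80913660), whose product joins the alpha subunits in synaptic receptors, rose with age and was abundant in both regions. Glrb was at 54.8, 61.8 and 68.6 TPM (lowest, median, highest) in Nova1hu/hu and at 54.8, 60.2 and 72.3 TPM in Nova1wt/wt midbrain at E18.5. At P21 it was at 252, 241, 238 and 270.0 TPM in Nova1hu/hu and at 266, 232, 247 and 258 TPM in Nova1wt/wt midbrain, all far above the E18.5 libraries. The rise was 4.64-fold (95% interval 4.31 to 4.99, log2 2.21 ± 0.05, adjusted p = 3.03e-23, edgeR). In cortex it stood at 158 ± 8.41 TPM (n = 8), and midbrain was 1.51-fold higher (1.43 to 1.58, adjusted p = 1.54e-13, edgeR).

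Set against its alpha partners, Glrb was in excess at P21 and more so in cortex. The ratio of Glrb to the summed alpha subunits in midbrain was 0.485 ± 0.0664 at E18.5 and 1.71 ± 0.169 at P21, and in cortex it was 5.83 ± 0.379. It was 3.55-fold higher at P21 than at E18.5 in midbrain (exact permutation p = 7.94e-06, adjusted 4.56e-05), and 3.41-fold lower in midbrain than in cortex (exact permutation p = 0.000155, again the smallest possible, adjusted 0.000447). No 2 tissues overlapped in this ratio.

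Gphn, which encodes the scaffold gephyrin of both glycine and GABA receptor synapses (Entrez 268566, chr12:78217325-78684772), changed least of the members with age and region. Its level was 123 ± 8.06 TPM (n = 12) in E18.5 midbrain, 93.7 ± 3.51 TPM (n = 8) in P21 midbrain and 84.9 ± 2.94 TPM (n = 8) in P21 cortex. The midbrain ages did not overlap, at 113 to 135 TPM and 90.2 to 101 TPM. The fit, which rescales libraries for their composition, put the age difference at -0.19 ± 0.04 on the log2 scale (1.14-fold lower at P21, adjusted p = 0.000311, edgeR), and the plain TPM means put it at -0.39. Between regions the fitted level was 1.05-fold higher in midbrain (log2 0.07 ± 0.03, adjusted p = 0.0520, edgeR), and this call was lost when any one of 7 of the 16 libraries was left out. The ratio of Gphn to Glrb was 2.01 ± 0.289 at E18.5, 0.375 ± 0.0237 at P21 in midbrain and 0.539 ± 0.0315 in cortex, which is 5.30-fold lower with age and 1.44-fold lower in midbrain than in cortex (exact permutation p = 7.94e-06 and 0.000155, adjusted 4.56e-05 and 0.000447).

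**Figure D4:**
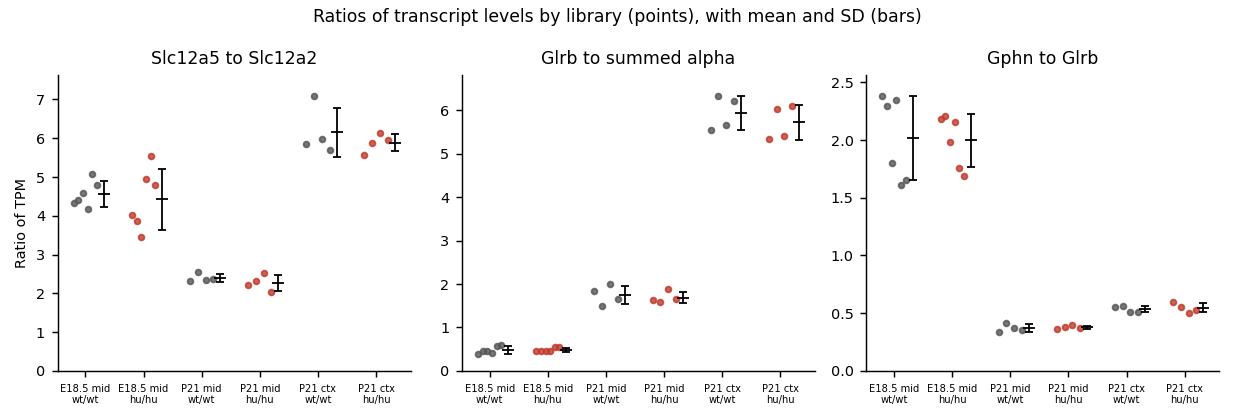
Ratio of TPM values (y axis, from 0) in every library (points) by tissue and genotype (x axis), with mean and SD, for Slc12a5 to Slc12a2, Glrb to the summed alpha subunits, and Gphn to Glrb. The first ratio is lowest in P21 midbrain, the second is highest in P21 cortex, and the third is highest in E18.5 midbrain.

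Of the transporters, Slc6a5 separated the regions most. This transcript of glycinergic neurons (Entrez 104245, chr7:49906984-49963864) was at 61.3, 73.8, 41.4 and 75.4 TPM in Nova1hu/hu and at 72.2, 63.0, 38.1 and 75.7 TPM in Nova1wt/wt midbrain at P21. In cortex it had 0 counts in 7 libraries and 1 count (0.0328 TPM) in Nova1hu/hu library 2. A count of 0 allows up to 3 counts, which is 0.0985 to 0.117 TPM in these libraries (counting error only). Over the 16 libraries of P21, 14929 counts in midbrain stood against 1 in cortex, so that the size of any ratio rests on that 1 count. No test of the region difference of Slc6a5 is given, for the reason stated above.

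With age Slc6a5 rose in midbrain, from 9.12, 12.4 and 16 TPM (lowest, median, highest) in Nova1hu/hu and 7.83, 11.6 and 16.4 TPM in Nova1wt/wt at E18.5 to 38.1 to 75.7 TPM at P21. The rise was 5.99-fold (95% interval 4.95 to 7.25, log2 2.58 ± 0.13, adjusted p = 9.69e-16, edgeR). Without the libraries numbered 3 at P21, which were the lowest of both genotypes, it was 2.75 on the log2 scale.

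Slc6a5 and Glra1 were the members whose level varied most among the P21 midbrain libraries, and this variation moved with the hindbrain markers. The marker list summed to 36.2, 37.9, 15.0 and 57.8 TPM in the Nova1hu/hu libraries 1 to 4 and to 60.3, 40.8, 13.3 and 44.8 TPM in the Nova1wt/wt libraries. For Slc6a5 the correlation of log2 values across the 8 libraries was r = 0.96 (permutation p = 0.00365, adjusted over 4 relations 0.0073) and Spearman's rho was 0.79 (permutation p = 0.0279, adjusted 0.0559), and r was 0.56 without the 2 libraries farthest from the median. For Glra1 it was r = 0.89 (permutation p = 0.0242, adjusted 0.0322), rho was 0.57 (permutation p = 0.151) and r was -0.28 without those 2, so that the relation of Glra1 rested on them. These p-values treat the 8 libraries as independent, whereas same-numbered libraries deviated together, and the 4 pairs are too few for a test, so the relations at P21 are a description. At E18.5 the correlation across 12 libraries was r = 0.76 for Slc6a5 (permutation p = 0.0032, adjusted 0.0073), with a rho of 0.78 (permutation p = 0.00356, adjusted 0.0142), and 0.68 without the 2 farthest libraries. Over the means of the 6 same-numbered pairs, which are closer to independent, r was 0.73 (permutation p = 0.0167) and rho was 0.83 (permutation p = 0.0583). For Glra1 at E18.5 it was r = 0.48 (permutation p = 0.109), with a rho of 0.56 (permutation p = 0.0621), and 0.20 without the 2 farthest. The part of hindbrain tissue in the levels of Slc6a5 and Glra1 was not tested otherwise.

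**Figure D5:**
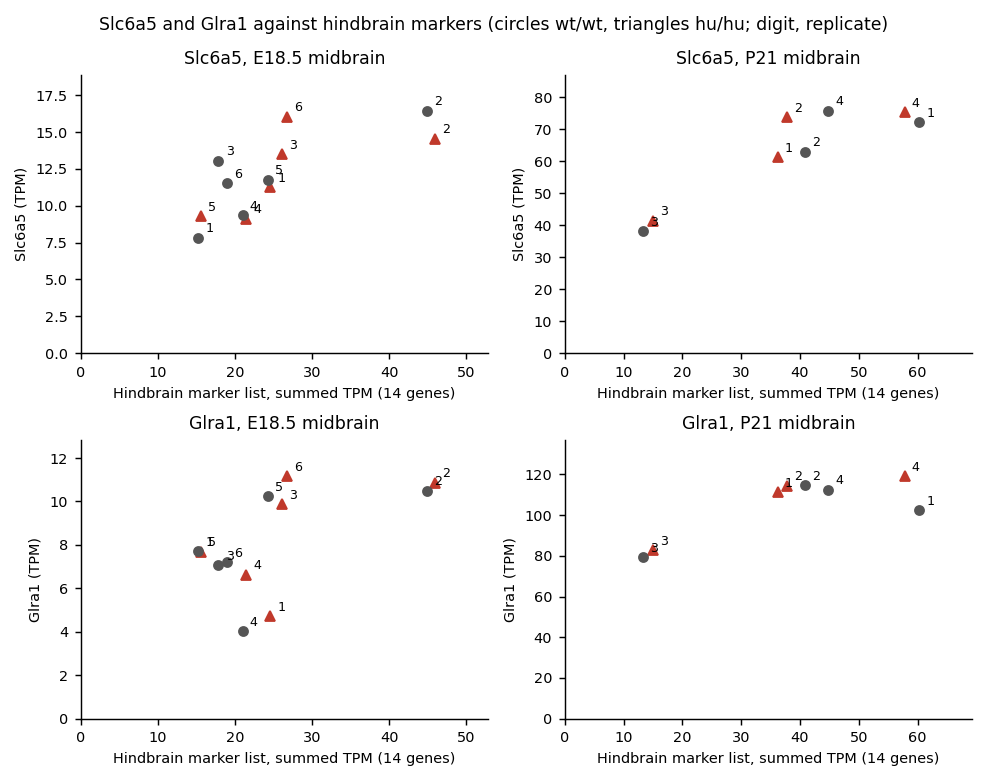
Level of Slc6a5 (top) and Glra1 (bottom) in TPM (y axis) against the summed TPM of 14 hindbrain markers (x axis) in E18.5 (left) and P21 (right) midbrain libraries, with circles for Nova1wt/wt, triangles for Nova1hu/hu and the replicate number beside each point. At P21 the libraries numbered 3 of both genotypes lie lowest on both axes, with Slc6a5 at 41.4 and 38.1 TPM.

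Slc6a9, the transporter of glia and of some neurons (Entrez 14664, chr4:117835258-117869305), was present in every library. It was at 56.7, 67.3 and 85.9 TPM (lowest, median, highest) in Nova1hu/hu and at 56.0, 68.2 and 91.5 TPM in Nova1wt/wt midbrain at E18.5, and at 228, 247, 227 and 230.5 TPM in Nova1hu/hu and 238, 237, 223 and 244 TPM in Nova1wt/wt midbrain at P21. The ages did not overlap, and the rise was 3.81-fold (95% interval 3.42 to 4.24, log2 1.93 ± 0.08, adjusted p = 2.36e-18, edgeR). In cortex it was narrowly set, at 47.1, 45.9, 45.3 and 46.4 TPM in Nova1hu/hu and 46.9, 47.3, 44.7 and 44.4 TPM in Nova1wt/wt. Midbrain was 4.83-fold higher (4.63 to 5.04, log2 2.27 ± 0.03, adjusted p = 1.58e-26, edgeR). Markers of astrocytes summed to a median of 919 TPM in E18.5 midbrain, 4289 TPM in P21 midbrain and 3527 TPM in cortex, and their part in the level of Slc6a9 was not tested. The ratio of Slc6a5 to Slc6a9 in midbrain was 0.172 ± 0.0430 at E18.5 and 0.266 ± 0.0587 at P21, with overlapping ranges (1.55-fold higher, exact permutation p = 0.00161, adjusted 0.00412).

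The chloride cotransporters both rose with age in midbrain, and Slc12a2 rose more. Slc12a5, the exporter of mature neurons (Entrez 57138, chr2:164960846-164999731), was already the most abundant member at E18.5, at 157, 185 and 228 TPM (lowest, median, highest) in Nova1hu/hu and 164, 198 and 226 TPM in Nova1wt/wt. At P21 it was at 332, 331, 318 and 302 TPM in Nova1hu/hu and 328, 322, 307 and 332 TPM in Nova1wt/wt midbrain, above every E18.5 library. The rise was 1.94-fold (95% interval 1.79 to 2.10, log2 0.96 ± 0.06, adjusted p = 1.97e-14, edgeR). The plain TPM means put it at 0.76 on the log2 scale, below this interval. In cortex it was at 272, 271, 300.2 and 292 TPM in Nova1hu/hu and 274, 305, 293 and 286 TPM in Nova1wt/wt. Midbrain was 1.06-fold higher (1.02 to 1.11, adjusted p = 0.00677, edgeR), a call that was lost when all 28 libraries shared one fit (adjusted p = 0.174).

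Slc12a2, the importer (Entrez 20496), was at 33.4, 42.0 and 56.3 TPM (lowest, median, highest) in Nova1hu/hu and 39.1, 42.4 and 49.3 TPM in Nova1wt/wt midbrain at E18.5, and at 126 to 149 TPM in P21 midbrain. The rise was 3.73-fold (95% interval 3.44 to 4.04, log2 1.90 ± 0.06, adjusted p = 5.96e-21, edgeR). In cortex it was at 48.7, 46.1, 49.0 and 48.9 TPM in Nova1hu/hu and 46.9, 43.1, 49.1 and 50.2 TPM in Nova1wt/wt, close to embryonic midbrain. P21 midbrain was 2.75-fold higher than cortex (2.61 to 2.90, log2 1.46 ± 0.04, adjusted p = 4.59e-21, edgeR).

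Accordingly, the ratio of Slc12a5 to Slc12a2 fell in midbrain and was highest in cortex. It was 4.50 ± 0.578 (n = 12, range 3.44 to 5.54) in E18.5 midbrain, 2.33 ± 0.161 (n = 8, 2.03 to 2.54) in P21 midbrain and 6.02 ± 0.459 (n = 8, 5.58 to 7.08) in P21 cortex, and no 2 tissues overlapped. It was 1.92-fold lower at P21 than at E18.5 in midbrain (exact permutation p = 7.94e-06, adjusted 4.56e-05) and 2.59-fold lower in midbrain than in cortex at P21 (exact permutation p = 0.000155, adjusted 0.000447). Both p-values again treat same-numbered libraries as independent. Between genotypes the mean ratio was 4.43 in Nova1hu/hu and 4.56 in Nova1wt/wt at E18.5, 2.27 and 2.39 in P21 midbrain, and 5.89 and 6.15 in cortex. None of the 14 genotype tests of ratios passed, and the lowest adjusted p was 0.723, for Slc12a5 to Slc12a2 in P21 midbrain (log2 difference -0.08, exact permutation p = 0.314, two-sided as all these tests).

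Cell types other than neurons also express Slc12a2, and several marker lists, not only that of oligodendrocytes, stood highest where Slc12a2 did. Oligodendrocyte markers summed to a median of 110 TPM in E18.5 midbrain, 22341 TPM in P21 midbrain and 6726 TPM in cortex, the P21 midbrain median being 204-fold above E18.5 and 3.32-fold above cortex. In the same order, medians were 919, 4289 and 3527 TPM for astrocyte and 141, 168 and 147 TPM for endothelial markers. Microglia markers had their highest median in cortex, and choroid plexus and progenitor markers in E18.5 midbrain. Choroid plexus markers ran from 12.8 to 3052 TPM among the P21 midbrain libraries. Neuron markers differed little, with medians of 4055, 4672 and 4779 TPM in the same order. The part of these cell types in the level of Slc12a2 and in the ratio was not tested.

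The order of levels, which TPM allows across genes, had Slc12a5 first in each tissue. In E18.5 midbrain Gphn and Glra2 followed with overlapping ranges, then Slc6a9, Glrb and Slc12a2, each of which overlapped its neighbour, and last Slc6a5, Glra3 and Glra1, which overlapped too. In P21 midbrain the order was Slc12a5, Glrb, Slc6a9, Slc12a2, Glra1, Gphn, Slc6a5, Glra2 and Glra3, where only Glrb with Slc6a9 and Glra1 with Gphn had overlapping ranges. In cortex Slc12a5 was followed by Glrb, Gphn, Slc12a2, Slc6a9, Glra2, Glra3, Glra1 and Slc6a5, and only Slc12a2 and Slc6a9 overlapped. Glra1 therefore stood last in E18.5 midbrain, the fifth in P21 midbrain and the last but one in cortex.

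Other genes followed some members closely across the 28 libraries, by Pearson's r of log2(TPM + 1) over 16303 genes. These libraries fall into 3 tissues, so that r mostly reflects tissue means and is given as a description. The closest to Slc6a5 were Sv2c, Sncg, Ret, Peg3 and Dlk1 (r from 0.987 to 0.990) and the closest to Glra1 were Kcnh2, Limk1, Inadl, Dst and Il6st (0.981 to 0.991). For Glra2 they were Ccdc50, Cd200, Eif4g2, Cbx5 and Xpr1 (0.995 to 0.997) and for Slc12a5 Man2a2, Nomo1, Pitpnm1, Tmem25 and Bcan (0.983 to 0.987). Within single tissues the closest genes were different ones. For Slc6a5 within the 12 E18.5 libraries they were Krt18, AI462493, the hindbrain marker Hoxd3, Pitpnb and 1600021P15Rik (0.870 to 0.913), and within the 8 P21 midbrain libraries Gpr37, Mab21l2, 2310040G24Rik, Fnbp1 and Cyp27a1 (0.976 to 0.988). For Glra1 they were Zfhx2as, Polr3gl, Hip1, Prss53 and Evl at E18.5 (0.881 to 0.968) and Ank, Gpr37, Dao, Med12 and 6330527O06Rik at P21 (0.953 to 0.972).

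A further list of 40 genes that act with the members, among them other transporters of glycine and chloride, kinases that set cotransporter activity and enzymes of glycine cleavage, was read in the same fits. Of these, 38 were in the tables. With age in midbrain, 19 of the 32 that passed the filter on low counts at each age alone were higher at P21, 9 were lower and 4 were not called, beside 42.4% higher and 43.3% lower of all genes. The median size was 0.58 on the log2 scale, near the 0.62 over all genes. The values over all genes include those that passed the filter at a single age. A further 4 genes, among them Egr4 and Glra4, were tested but did not pass the filter at each age alone, so that their calls are no support. Over all tested, the 4 largest rises were those of Egr4, a transcription factor known to act on Slc12a5 (log2 3.61 ± 0.36, from 0.0890 to 0.994 TPM), Glra4, a further alpha subunit (2.46 ± 0.25, from 0.555 to 2.67 TPM), Slc6a17, a vesicular amino acid transporter (2.14 ± 0.05), and Slc7a10, a glial carrier of glycine and D-serine (2.10 ± 0.08). The 4 largest falls were those of Neto2, a partner of the KCC2 protein (-1.49 ± 0.05), Gldc, of the glycine cleavage system (-1.31 ± 0.08), Slc12a7, a further potassium chloride cotransporter (-1.09 ± 0.08), and the kinase gene Wnk4 (-0.60 ± 0.12). Leaving out Egr4 and Glra4, these genes had an adjusted p of at most 6.44e-05 in edgeR.

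Between regions at P21, 19 of the 32 that passed in each tissue alone were higher in midbrain, 11 were higher in cortex and 2 were not called, beside 37.9% and 37.7% of all genes, with a median size of 0.39 against 0.33. Here too the values over all genes include those that passed in a single tissue. A further 3 genes, among them Glra4 and Slc12a1, did not pass in each tissue alone, and their calls are no support either. Over all tested, the largest differences towards midbrain were those of Glra4 (log2 2.88 ± 0.22), Slc12a8 (1.54 ± 0.14), Slc12a1 (1.37 ± 0.46, at 0.209 and 0.0745 TPM) and the kinase gene Wnk1 (0.98 ± 0.03). Towards cortex they were those of Egr4 (-4.40 ± 0.23), Gldc (-2.17 ± 0.07) and Dynll1, which encodes a dynein light chain that binds gephyrin (-0.95 ± 0.03). Leaving out Glra4 and Slc12a1, each of these had an adjusted p under 0.1 in edgeR. In the genotype comparisons 0 of 32, 35 and 32 genes of this list were called.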

How the data were processed

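Polyadenylated RNA of 28 mouse brain libraries was sequenced, and per the study's methods the authors aligned paired reads to mm10 with OLego 1.1.7 and counted them per gene with Quantas 1.0.9. The authors deposited 1 table per library, with the expected count, exon length and RPKM of 23038 genes. The deposited RPKM follows from the counts and exon lengths and was not used otherwise. The deposited expected counts were fractional for 751 to 2715 genes per library and were rounded for the tests, and TPM was computed from the unrounded counts. Counting was not by strand as far as the sources used here state, so reads of overlapping genes cannot be told apart.

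Groups came from the labels. Genotype was compared within each tissue, age in midbrain and region at P21 over both genotypes with genotype as a term, with TMM factors, filterByExpr and the quasi-likelihood test of edgeR 4.0.16 (R 4.3.3), over all genes that passed the filter. Single members and ratios were compared by two-sided exact permutation of log2 values. DESeq2 1.42.0 and other settings served as alternatives, and the edgeR fit was checked on simulated data. The smallest exact p is 0.00216 for 6 against 6 libraries and 0.0286 for 4 against 4. Of 25 planned ratio tests 23 could be computed, since Slc6a5 is at 0 in most cortex libraries. The labels do not say that libraries are separate animals, so p-values measure the spread between libraries.

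Within each tissue the replicate numbers paired the genotypes. The deviations of same-numbered libraries from their group means correlated at 0.331 to 0.582 (6 pairs, E18.5), 0.304 to 0.397 (4 pairs, P21 midbrain) and 0.320 to 0.410 (4 pairs, cortex). This pairing comes from the data, not from the labels. The age and region tests pooled both genotypes and treated same-numbered libraries as independent, so their p-values can be too small. With the replicate block 0 members were called between genotypes, as without it. Depth was 18550922 to 45134998 counts per library.

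The text names the 9 members, the 4 listed pathway genes with the largest called change each way (1 of them is not reported here), and the 5 genes most like Slc6a5, Glra1, Glra2 and Slc12a5 among genes of at least 1 TPM. The members, lists and tests were chosen with earlier results of these data known.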

Additional observations from a re-analysis of the deposited data

Results flagged for a closer look

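Of 82 groups of 4 to 6 libraries tested for a single value far from the rest, 5 were marked, and chance marks about 1 in 20 groups. Of these, 4 came from Nova1hu/hu cortex library 2. Glra3 was at 4.49 TPM there, against 6.77 to 7.04 TPM in the other Nova1hu/hu cortex libraries. Slc12a2 was at 46.1 TPM, against 48.7 to 49.0 TPM. Slc6a5 was at 0.0328 TPM and its ratio to Slc6a9 at 0.000715, where the others were at 0, and both values rest on 1 count. In E18.5 midbrain the ratio of Slc6a5 to Slc6a9 was 0.259 in Nova1wt/wt library 2, against 0.135 to 0.158 in the others, and the hindbrain marker sum of this library was 44.9 TPM, against 15.3 to 24.3 TPM in the others.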

How the results depend on the processing

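The 9 age calls and the 0 genotype and interaction calls of members did not change with RLE factors, DESeq2, the likelihood ratio test, other filters or thresholds, all 28 libraries in one fit, or any single library left out. Slc12a5 lost its region call in the shared fit (adjusted p 0.174). Gphn lost its region call (adjusted p 0.0520) with the likelihood ratio test (0.0751), the shared fit (0.193), an adjusted p under 0.05, the P21 midbrain libraries numbered 3 left out (0.0709, chosen after seeing the data) and 7 single libraries left out (0.0711 to 0.114), namely Nova1hu/hu cortex 2, 3 and 4, Nova1wt/wt cortex 2 and 4, Nova1hu/hu midbrain 4 and Nova1wt/wt midbrain 2. The cause was not tested. Slc6a5 and Glra1 could not be tested between regions when 10 counts in every library were required. Scaling by library size alone moved the median age change of all genes from -0.02 to -0.17 and the share of higher calls from 49.5% to 41.5%, and every member kept its direction.

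With the replicate number as a block, 0 members were called between genotypes, and over all genes the count in P21 midbrain went from 0 to 4 (1 higher, 3 lower), while DESeq2 and the likelihood ratio test called 1 gene there without the block. Replicate numbers did not pair ages or regions (correlations of -0.234 to 0.289 and -0.325 to -0.124), and the replicate block moved no count of member calls there.

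Leaving out 1 library turned the sign of 11 small genotype differences of ratios (log2). They ranged, at E18.5, from -0.125 to 0.0127 for Slc12a5 to Slc12a2, from -0.0381 to 0.349 for Glra1 to Glra2, from -0.0412 to 0.0835 for Glrb to the alpha sum and from -0.0614 to 0.0507 for Gphn to Glrb. In P21 midbrain they ranged from -0.0741 to 0.246 for Glra1 to Glra2, from -0.119 to 0.0199 for Glrb to the alpha sum, from -0.151 to 0.219 for Slc6a5 to Slc6a9 and from -0.0120 to 0.0883 for Gphn to Glrb. In cortex they ranged from -0.0927 to 0.0108 for Slc12a5 to Slc12a2, from -0.240 to 0.520 for Glra1 to Glra2 and from -0.0105 to 0.0714 for Gphn to Glrb. None of these was past the threshold. Precision is limited for Glra1 and Slc6a5 in cortex, where their counts are low.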
